A study of Mus musculus with 12 samples.

Results

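The BCL2 family of apoptosis regulators was followed in mouse splenic B cells through 10 named genes, matched by symbol to the array's probe annotation, each read from its probe set with the highest mean. Of the 10, 9 had a probe set of 1 gene symbol, out of 18194 genes on the array with such a probe set, and 6 passed the filter on low values, out of 9307 genes tested. Those 6 were Bcl2, Mcl1, Bak1, Bid, Bmf and Bcl2l11. Bcl2l1, Bik and Bbc3 stayed below the filter, and Bax was not analysed here because no probe set carried that symbol in the annotation used.

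Total RNA of sorted marginal zone (MZ) and follicular (FO) B cells was hybridised to 12 Affymetrix arrays, 2 for each of 6 groups. MZ cells were sorted as CD21highCD23low and FO cells as B220+AA4.1-CD21intCD23+, after magnetic depletion of other cells. All mice, controls included, were female C57BL/6 aged 10 weeks with 1 mb1-cre allele, which drives Cre in the B lineage. In each cell type the groups were homozygous (mb1-cre(+/-)Bcl6(flox/flox)), heterozygous (mb1-cre(+/-)Bcl6(+/flox)) and wild-type (mb1-cre(+/-)Bcl6(+/+)). The labels leave unsaid whether the paired arrays of each group come from different mice, and the p-values then reflect only the scatter of these arrays, which could be technical. Nor do they state whether MZ and FO cells came from the same mice, and the extent of the deletion in DNA was not measured here.

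Mitochondrial apoptosis is set by a balance within this family. Pro-survival proteins (BCL2, BCL-XL from Bcl2l1, MCL1) hold the effectors BAX and BAK in check, BH3-only proteins (BIM from Bcl2l11, BMF, BID, PUMA from Bbc3, BIK) bind and neutralise the pro-survival proteins or activate the effectors, and active effectors permeabilise the outer mitochondrial membrane. In B cells BIM is a main brake on survival and BCL2 and MCL1 are needed for mature B cells to persist, while BCL6 is a transcriptional repressor best known in germinal centre B cells. Levels and differences are given on the log2 scale, so a difference of 1 is a doubling, and levels of different genes are not compared because probe sets differ in response.

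The promoters of the 2 members that separated the cell types, Bid and Bmf, and of Bcl2l11 are shown because these are the BH3-only genes that passed the filter. Windows of 300 bases around annotated starts (RefSeq, GRCm38.p6) were found for 9 of the 10 members, 16 windows in all. The Bid window is chr6:120916775-120917074 on the minus strand, the Bmf window chr2:118549637-118549936 on the minus strand and the Bcl2l11 window chr2:128125788-128126087 on the plus strand. For Bmf and Bcl2l11 it is the window of the outermost start. Capitals mark a match to TGTTTAC on either strand, the letters of a forkhead (FOXO) site.
Bid: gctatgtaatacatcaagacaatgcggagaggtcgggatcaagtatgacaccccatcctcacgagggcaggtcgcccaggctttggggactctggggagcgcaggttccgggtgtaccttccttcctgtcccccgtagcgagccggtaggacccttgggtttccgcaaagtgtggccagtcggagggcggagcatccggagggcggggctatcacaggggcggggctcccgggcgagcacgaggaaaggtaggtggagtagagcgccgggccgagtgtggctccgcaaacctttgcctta
Bmf: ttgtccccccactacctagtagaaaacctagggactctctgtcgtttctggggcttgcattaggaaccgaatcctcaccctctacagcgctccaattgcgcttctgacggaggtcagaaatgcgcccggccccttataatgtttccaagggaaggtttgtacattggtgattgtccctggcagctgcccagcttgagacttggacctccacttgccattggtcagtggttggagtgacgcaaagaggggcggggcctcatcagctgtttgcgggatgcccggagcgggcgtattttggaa
Bcl2l11: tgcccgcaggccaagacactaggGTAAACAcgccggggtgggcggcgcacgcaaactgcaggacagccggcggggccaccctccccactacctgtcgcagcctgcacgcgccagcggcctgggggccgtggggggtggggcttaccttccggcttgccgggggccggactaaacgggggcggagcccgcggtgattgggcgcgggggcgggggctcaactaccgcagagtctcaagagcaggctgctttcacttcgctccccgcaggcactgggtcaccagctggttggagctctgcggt
TGTTTAC, searched on both strands, was present in 2 of the 16 windows, the Bcl2l11 window above at base 24 and one Bbc3 window at base 84, and in 3.65% of 32851 windows of all genes. TTCNNNGAA, a palindrome that resembles the reported BCL6 and STAT sites, was in 0 of the 16 windows and in 8.3% of all windows. These matches describe letters only, and no binding was measured.

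The sorted populations differed in the genes of their sort markers. Fcer2a, which encodes CD23, lay at 8.85 to 9.50 on MZ arrays and 13.63 to 14.25 on FO arrays. Cr2, which encodes CD21, lay at 14.05 to 14.88 on MZ arrays and 12.07 to 13.42 on FO arrays. Both proteins were used in the sort. Replicate arrays correlated at 0.944 in MZ wild-type and at up to 0.984 in other groups. MZ wild-type replicate 1 stood apart: its Gapdh control probe sets differed by 6.90 between the 3′ and 5′ ends, against -0.20 to 0.63 on the other 11 arrays. S100a8 and S100a9, neutrophil genes, had high values on 4 arrays (MZ homozygous replicate 1, MZ wild-type replicate 1, FO homozygous replicate 1 and FO heterozygous replicate 1), with S100a8 at 7.55 to 9.17 there and at most 2.66 elsewhere. Bcl6 itself was read by 2 probe sets whose exons are not given. The brighter one lay at 9.95 to 10.37 in MZ homozygous and 8.29 to 8.81 in MZ wild-type arrays, and at 12.70 to 12.88 in FO homozygous and 11.65 to 11.95 in FO wild-type arrays. The dimmer one lay at 2.36 to 2.48 in FO homozygous and 4.94 to 5.61 in FO wild-type arrays, and at the minimum on all MZ arrays, so in MZ cells neither probe set showed a loss of transcript. In these bulk samples fewer cells of a type and less RNA per cell cannot be told apart.

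**Figure D1:**
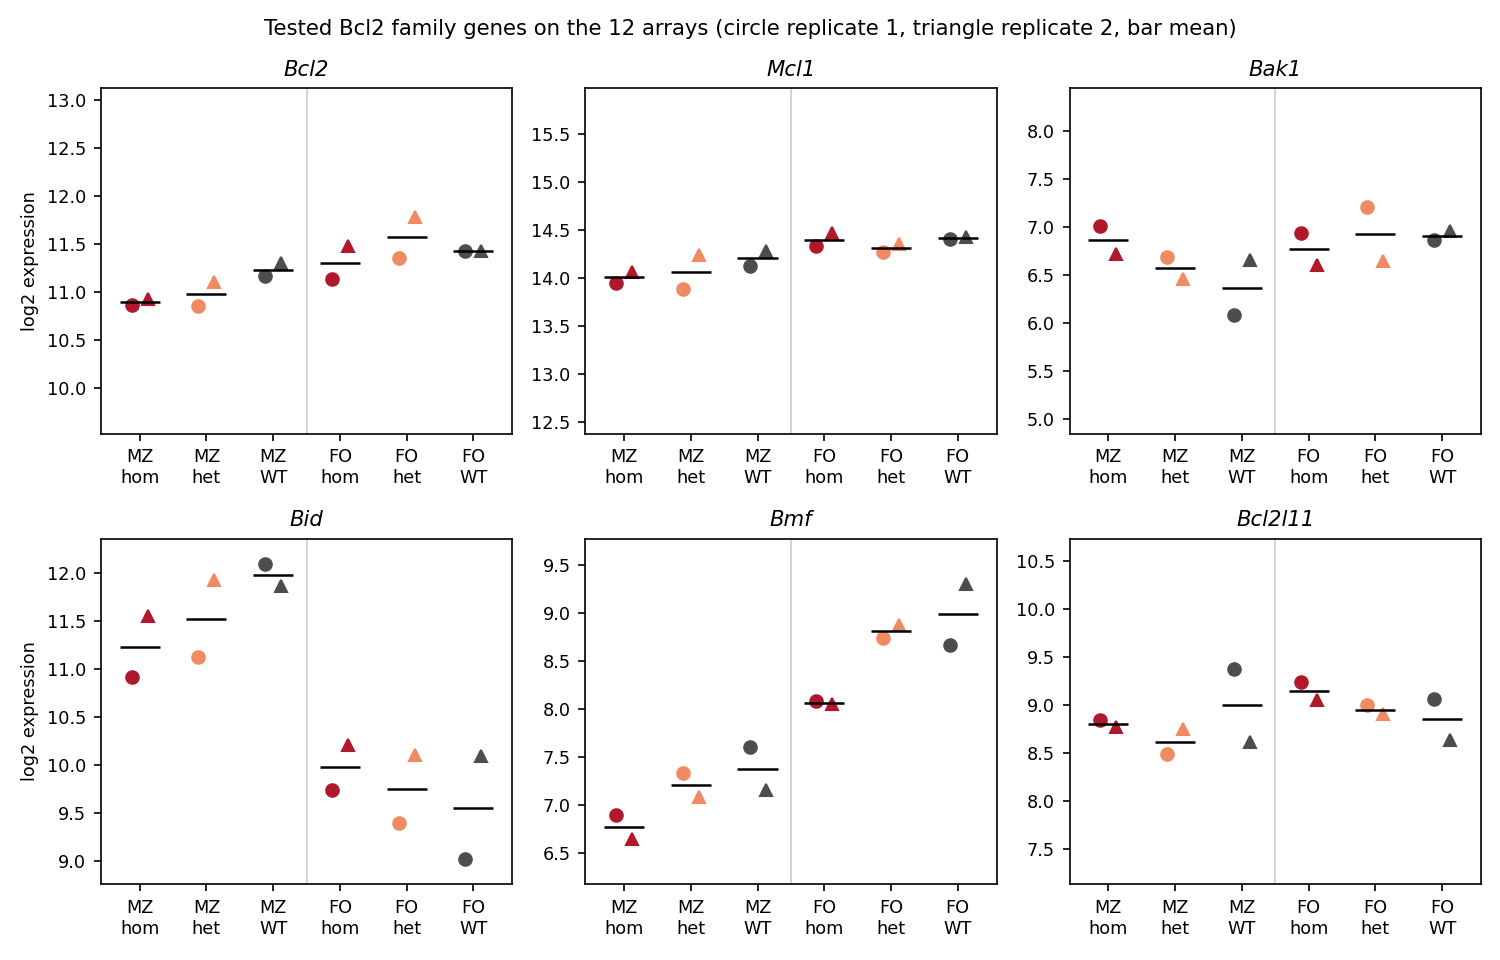
Log2 expression (y axis) of the 6 tested BCL2 family genes on each of 12 arrays, by cell type and Bcl6 genotype (x axis); circles are replicate 1, triangles replicate 2 and bars group means, and every panel spans the same range of log2 units. Bmf is lower and Bid higher on all 6 MZ arrays than on all 6 FO arrays, and the other 4 genes stay within narrower ranges.

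MZ against FO cells differed most in 2 BH3-only genes that moved in opposite directions. Bmf, whose protein is released from the cytoskeleton in stressed cells, fell in MZ cells, and Bid, whose protein is cleaved by caspase-8 and links death receptors to mitochondria, rose in MZ cells. The pro-survival genes Bcl2 and Mcl1 fell in MZ cells by small amounts in the mean of the genotypes, calls that ended once the arrays were rescaled. Bcl2l11 and Bak1 did not pass the test between the cell types.

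Bmf stood at 6.90 and 6.65 in MZ homozygous, 7.34 and 7.09 in MZ heterozygous and 7.60 and 7.16 in MZ wild-type arrays. In FO cells it stood at 8.09 and 8.06 in homozygous, 8.75 and 8.88 in heterozygous and 8.67 and 9.31 in wild-type arrays. All MZ arrays lay below all FO arrays, as they did for 17% of tested genes. The MZ minus FO difference was -1.29 ± 0.24 in the homozygous genotype (limma adjusted p = 0.00661), -1.60 ± 0.24 with 1 floxed allele (limma adjusted p = 0.00209) and -1.61 ± 0.24 in wild-type cells (limma adjusted p = 0.00192; SE from the model, n = 2 each). Over the 3 genotypes it averaged -1.50 ± 0.14 (95% interval -1.82 to -1.18, limma adjusted p = 4.9e-05), a 2.83-fold lower level in MZ cells. Bmf passed in each genotype, as did 13.8% of tested genes. Without MZ homozygous replicate 2 the homozygous difference was -1.17 and no longer passed. It also did not pass with the mean of all probe sets, so the homozygous call did not hold in every setting.

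Bid stood at 10.92 and 11.56 in MZ homozygous, 11.13 and 11.93 in MZ heterozygous and 12.10 and 11.87 in MZ wild-type arrays. On the FO side the values were 9.75 and 10.21 in homozygous, 9.40 and 10.10 in heterozygous and 9.02 and 10.10 in wild-type arrays. The lowest MZ array lay above the highest FO array, as for 11.4% of tested genes. The replicates of Bid were further apart than those of Bmf, and its standard errors are larger. The MZ minus FO difference was 1.26 ± 0.44 in homozygous cells (limma adjusted p = 0.0834), which did not pass as reported but did in 4 of 22 alternative settings. The homozygous difference did pass with array weights (1.26, limma adjusted p = 0.0465), with equal array medians (1.43, limma adjusted p = 0.0419), with quantile normalization (1.49, limma adjusted p = 0.0418) and with the replicate number as a block (1.26, limma adjusted p = 0.0167). The difference was 1.77 ± 0.44 in heterozygous (limma adjusted p = 0.0205) and 2.42 ± 0.44 in wild-type cells (limma adjusted p = 0.00479), and averaged 1.82 ± 0.25 over the genotypes (95% interval 1.24 to 2.39, limma adjusted p = 5.16e-04), a 3.53-fold higher level. The heterozygous and wild-type calls were lost with the mean of all probe sets and with only the arrays compared. The heterozygous call was also lost without FO heterozygous replicate 1 (1.42) or MZ heterozygous replicate 2 (1.38).

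Bcl2l11, the third BH3-only gene tested, stood at 8.84 and 8.77 in MZ homozygous, 8.49 and 8.75 in MZ heterozygous and 9.38 and 8.62 in MZ wild-type arrays. FO cells gave 9.24 and 9.05 in homozygous, 9.0 and 8.91 in heterozygous and 9.06 and 8.64 in wild-type arrays. The cell types overlapped, and MZ wild-type replicate 1, the array with the high Gapdh control difference, was the highest of the 12. The mean difference was -0.18 ± 0.15 (95% interval -0.52 to 0.16, limma adjusted p = 0.364).

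The remaining BH3-only genes were low everywhere. Bbc3 stood at 3.59 and 3.44 in MZ homozygous, 3.62 and 3.44 in MZ heterozygous and 3.44 on both MZ wild-type arrays. Its FO values were 4.16 and 3.52 in homozygous, 3.91 and 3.52 in heterozygous and 3.52 and 2.97 in wild-type arrays. FO homozygous replicate 1, one of the arrays with neutrophil genes, was the only one to reach 4, and 4 MZ arrays shared one identical value and 3 FO arrays another, which can occur where probes lie at background. Bik lay between 2.21 and 2.27 on every array, at or next to the minimum of the table. Neither was tested.

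Bak1, the measured effector, stood at 7.01 and 6.72 in MZ homozygous, 6.69 and 6.46 in MZ heterozygous and 6.08 and 6.66 in MZ wild-type arrays. FO arrays read 6.93 and 6.61 in homozygous, 7.21 and 6.65 in heterozygous and 6.86 and 6.96 in wild-type arrays. The cell types overlapped. The mean MZ minus FO difference was -0.27 ± 0.15 (95% interval -0.61 to 0.077, limma adjusted p = 0.181).

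Among the pro-survival members, Bcl2 stood at 10.86 and 10.92 in MZ homozygous, 10.86 and 11.10 in MZ heterozygous and 11.17 and 11.30 in MZ wild-type arrays. Among FO arrays it measured 11.14 and 11.48 in homozygous, 11.36 and 11.79 in heterozygous and 11.43 and 11.42 in wild-type arrays. Within each genotype both MZ arrays lay below both FO arrays, as they also did for Mcl1 and Bmf. The share of all tested genes that did so in every genotype was not counted. The Bcl2 differences did not pass, at -0.42 for homozygous (limma adjusted p = 0.185), -0.59 for heterozygous (limma adjusted p = 0.0595) and -0.19 for wild-type cells (limma adjusted p = 0.523). The heterozygous difference passed under 5 other settings, with limma adjusted p from 0.0233 (replicate block) to 0.0485 (array weights). Their mean, -0.40 ± 0.11, did (limma adjusted p = 0.0194). It no longer passed without FO homozygous replicate 2 or without MZ heterozygous replicate 1 (limma adjusted p = 0.0548 for each).

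Mcl1 stood at 13.95 and 14.06 in MZ homozygous, 13.88 and 14.24 in MZ heterozygous and 14.13 and 14.28 in MZ wild-type arrays. The FO levels were 14.33 and 14.46 in homozygous, 14.27 and 14.35 in heterozygous and 14.40 and 14.42 in wild-type arrays. The gap between the cell types was smaller than that of Bmf or Bid, at a mean of -0.28 ± 0.094 (limma adjusted p = 0.0371), and no single genotype passed. The call was lost when any one of 10 of the 12 arrays was left out, all but MZ heterozygous replicate 2 and MZ wild-type replicate 2 (limma adjusted p = 0.0593 to 0.0938). Bcl2l1 lay between 2.59 and 3.65, below the filter on every array, and was not tested.

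**Figure D2:**
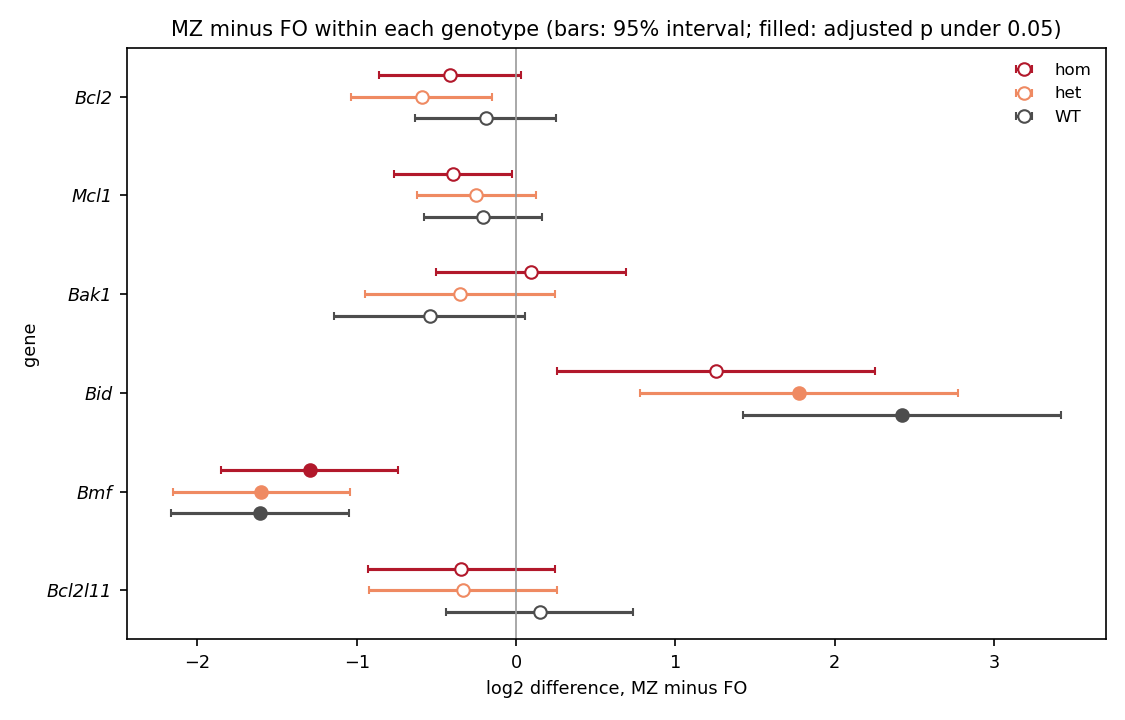
MZ minus FO difference (log2) of the 6 tested genes in each Bcl6 genotype, with 95% intervals from the limma fit; filled points passed the adjusted threshold of 0.05. Bmf is negative with intervals clear of 0 in every genotype, Bid is positive, and the differences of Bcl2, Mcl1, Bak1 and Bcl2l11 lie between -0.59 and 0.15.

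Counted against all genes, 4 of the 6 tested members passed in the mean of the genotypes, where 44.5% of all tested genes did: 1 was higher (16.2% of genes) and 3 were lower (28.2%) in MZ cells. In homozygous cells 1 of 6 passed, against 19.1% of genes, in heterozygous cells 2 of 6, against 23.2%, and in wild-type cells 2 of 6, against 22.2%. The median difference of the members was -0.28, and that of all tested genes -0.17. The lowest value of the table was 2.21924 on MZ and 2.21262 on FO arrays, so the cell types may have been normalized in separate runs. Run and cell type cannot be told apart here. With array medians set equal the mean difference became -0.24 for Bcl2 (limma adjusted p = 0.0938) and -0.13 for Mcl1 (limma adjusted p = 0.292), and both calls ended. Bid at 1.98 and Bmf at -1.34 kept theirs.

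Deletion of Bcl6 was compared with wild-type within each cell type. None of the 6 tested members passed in homozygous against wild-type cells in MZ, where 0.0645% of all genes did, in FO, where 0.43% did, or in the mean of both, where 0.462% did. The same held for heterozygous against wild-type cells (0.0107% of genes in MZ, 0% in FO) and for homozygous against heterozygous cells (0.0322% in MZ, 0.0752% in FO). At an unadjusted p under 0.05, Bmf was the only member in MZ (6.08% of genes), in FO (6.97%) and in the mean (9.07%). In homozygous against heterozygous FO cells it had an unadjusted limma p of 0.0148 (limma adjusted p = 0.984). For that comparison the share of all genes under 0.05 before adjustment was not counted.

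Bmf gave the most regular pattern over the genotypes. Homozygous MZ arrays averaged 6.78 ± 0.18, heterozygous MZ arrays 7.21 ± 0.17 and wild-type MZ arrays 7.38 ± 0.31 (SD, n = 2 each). Homozygous FO arrays averaged 8.07 ± 0.02, heterozygous FO arrays 8.81 ± 0.095 and wild-type FO arrays 8.99 ± 0.45 (SD, n = 2 each). Group means therefore ran in the order homozygous, heterozygous, wild-type from low to high in both cell types, as for 6% of tested genes. Both homozygous arrays lay below both wild-type arrays in MZ and in FO, as for 5.58% of genes, and among the 6 tested members only Bmf did so. The difference was -0.61 ± 0.24 in MZ (95% interval -1.16 to -0.051, limma adjusted p = 0.801), -0.92 ± 0.24 in FO (95% interval -1.48 to -0.36, limma adjusted p = 0.253) and -0.76 ± 0.17 in the mean of both (limma adjusted p = 0.143). FO homozygous replicate 2, with S100a8 at 2.66, had Bmf at 8.06 and replicate 1, with S100a8 at 9.17, had 8.09. The log2 values of the 5 measured neutrophil markers summed to 11.36 to 22.90 in MZ homozygous and 11.37 to 25.38 in MZ wild-type arrays, and to 11.62 to 30.51 in FO homozygous and 11.53 to 11.54 in FO wild-type arrays. The 5 measured erythroid markers summed to 20.93 to 21.23 in MZ homozygous and 20.08 to 25.65 in MZ wild-type arrays, and to 22.95 to 23.36 in FO homozygous and 25.79 to 26.62 in FO wild-type arrays. Among the erythroid markers Car2 was at 4.43 and 4.56 in FO homozygous and 8.15 and 8.49 in FO wild-type arrays. Tfrc went the other way, at 11.73 and 11.25 in FO homozygous and 10.50 and 10.99 in FO wild-type arrays. Hba-a1, Alas2 and Slc4a1 lay below 4 on every array, so the lower FO sum rests on Car2 alone. Any part of neutrophils or erythroid cells in the Bmf difference was not tested. The mean passed once MZ wild-type replicate 2 was left out (limma adjusted p = 0.0493). Leaving out MZ wild-type replicate 1 gave an MZ difference of -0.39, and leaving out FO wild-type replicate 2 an FO difference of -0.60 (limma adjusted p = 0.56).

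The other members differed less between genotypes than their intervals allow to be resolved. Bid was -0.75 ± 0.44 in MZ homozygous against wild-type cells (95% interval -1.75 to 0.25) and 0.42 ± 0.44 in FO (95% interval -0.58 to 1.42). Bak1 was 0.50 ± 0.26 in MZ and -0.14 ± 0.26 in FO. Bcl2 was -0.34 ± 0.19 in MZ and -0.12 ± 0.19 in FO, and Mcl1 was -0.20 ± 0.16 in MZ and -0.017 ± 0.16 in FO. Bcl2l11 was -0.19 ± 0.26 in MZ and 0.30 ± 0.26 in FO. Its other tested probe sets were higher in MZ homozygous cells, at 0.51, 0.83 and 0.13, so its direction in MZ depended on the probe set. In FO they were at 0.96, 0.46 and -0.51. Without MZ wild-type replicate 1, the array with the high Gapdh control difference, the MZ value was 0.21 for Bak1 and 0.19 for Bcl2l11. Without FO wild-type replicate 1 the FO value of Bid was -0.12, so the direction of Bid in FO rests on that array. Single FO homozygous arrays also turned the small FO differences of Bcl2, to 0.054 without replicate 1, of Mcl1, to 0.049 without replicate 1, and of Bak1, to 0.023 without replicate 2. In MZ, both homozygous arrays lay below both wild-type arrays for Bcl2, Mcl1, Bid and Bmf (21.3% of genes) and above them for Bak1 (9.96%), while in FO only Bmf did not overlap (15.9% of genes lower, 18% higher).

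**Figure D3:**
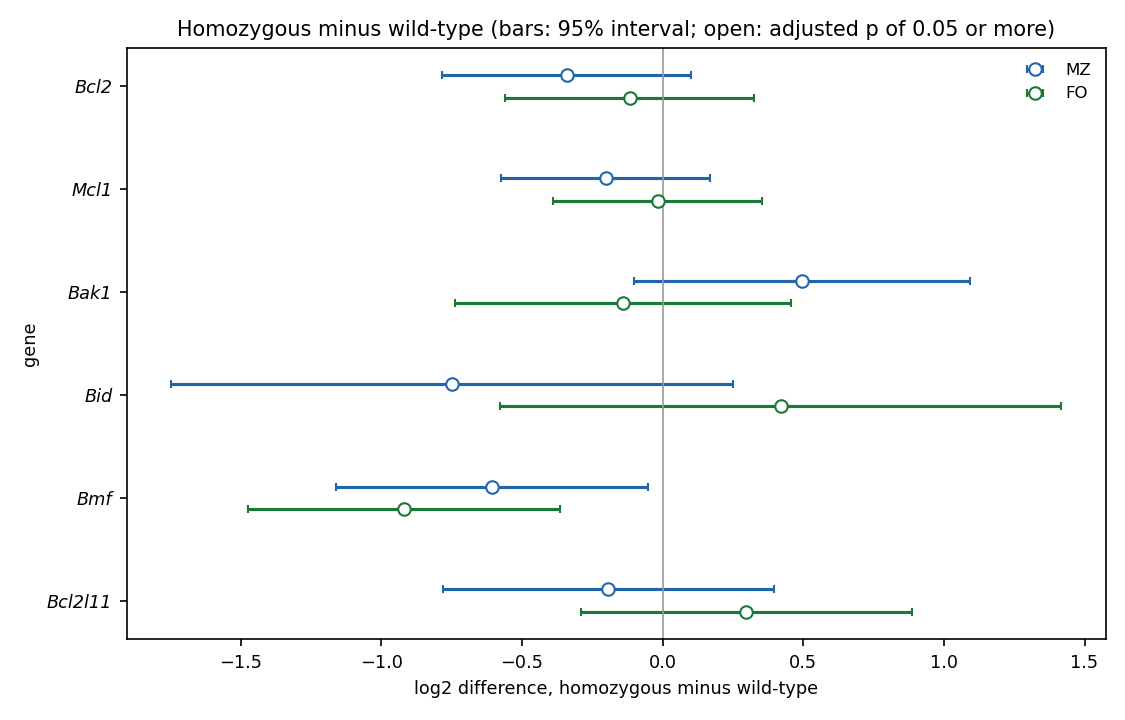
Homozygous minus wild-type difference (log2) of the 6 tested genes in MZ and in FO cells with 95% intervals from the limma fit. Bmf is the only gene whose interval lies below 0 in both cell types, and no gene passed the adjusted test.

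Whether the homozygous difference itself differed between the cell types was tested as MZ change minus FO change. No member passed, and 0.0107% of all genes did. Bid gave -1.17 ± 0.62 (limma adjusted p = 0.975), with a 95% interval of -2.58 to 0.24, Bak1 0.64 ± 0.37 and Bmf 0.31 ± 0.34.

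Other probe sets of the members were read as a check, an alternative added after the data were seen. Probe sets of 1 gene were read on the same arrays, so they are not independent of each other. The share of all 16699 tested probe sets that passed between MZ and FO cells was not counted. Of tested genes 44.5% passed in the mean of the genotypes. All 6 Mcl1 probe sets were lower in MZ cells, between -0.75 and -0.28, and 4 passed (limma adjusted p = 0.0235 to 0.0495). MZ wild-type replicate 1, the array with the high Gapdh control difference, read 14.13 against 14.28 on replicate 2 in the highest-mean Mcl1 probe set. In 2 others it read 11.89 against 13.16 and 12.75 against 13.64. All 3 Bid probe sets were higher, between 0.74 and 1.82, and 2 passed. Besides the highest-mean one, the probe set that passed (0.74) had 5 FO arrays at the single value 6.545. The one that did not pass (0.90 ± 0.74, limma adjusted p = 0.367) read 4.60 on MZ wild-type replicate 1 and 8.59 on replicate 2. The 4 tested Bcl2l11 probe sets were lower, between -1.06 and -0.18, with none called. Bcl2 was divided, with 3 probe sets lower and 2 higher between -0.55 and 0.74 and 1 called. Bmf rests on 1 probe set, since its other 2 lay below 4 on every array. No probe set of any member passed between homozygous and wild-type cells. In both cell types the direction of that difference was divided among the tested probe sets of Bcl2, Mcl1, Bid and Bcl2l11. When all probe sets of a gene were averaged, Bcl2l11 passed at -0.46 (limma adjusted p = 0.019) and Bcl2 did not, at -0.086 (limma adjusted p = 0.792). The Bcl2l11 average includes 1 probe set below 4 on every array. Another in it read 7.06 on MZ wild-type replicate 1 and 8.22 on replicate 2.

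**Figure D4:**
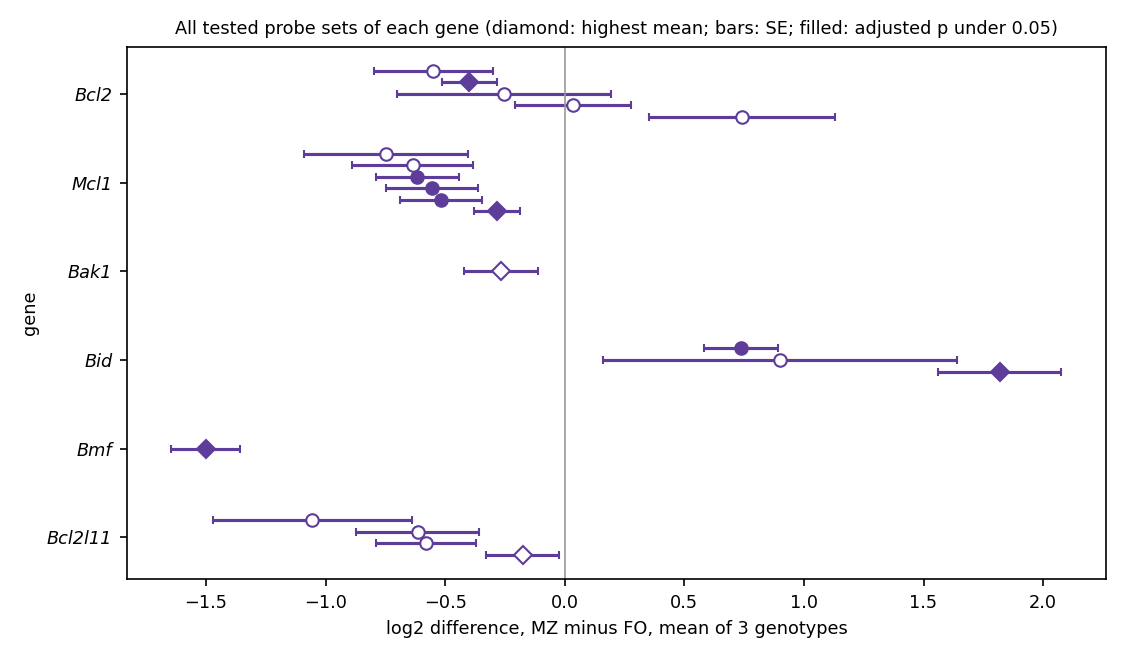
MZ minus FO difference (log2, mean of 3 genotypes) of every tested probe set of the family, with SE bars; diamonds mark the probe set with the highest mean and filled points passed the adjusted threshold of 0.05. Mcl1, Bid and Bcl2l11 probe sets share 1 direction, and those of Bcl2 lie on both sides of 0.

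Other genes of the pathway were read from lists. Of 14 measured further family genes 8 were tested, and 2 passed as higher and 1 as lower between MZ and FO cells in the mean of the genotypes, with a median of -0.12 over the 8. Over all tested genes 16.2% passed as higher and 28.2% as lower, with a median of -0.17. Bcl2l2, which encodes the pro-survival protein BCL-w, was higher in MZ cells by 0.96 ± 0.16 (limma adjusted p = 0.00137). Bcl2l12 was higher by 0.61 ± 0.098 (limma adjusted p = 0.00114). Bnip3, a mitochondrial protein induced in low oxygen that takes part in mitophagy, fell by 2.05 ± 0.16 (limma adjusted p = 1.58e-05).

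Of 21 genes downstream of the effectors, 3 passed as higher and 4 as lower (16.2% and 28.2% of all genes), with a median of -0.098. Birc5 (survivin), which acts in cell division and inhibits apoptosis, rose by 4.22 ± 0.59 in MZ cells (limma adjusted p = 5.41e-04). It stood at 10.07 and 8.44 in MZ homozygous, 7.41 and 6.48 in MZ heterozygous and 9.25 and 6.94 in MZ wild-type arrays. The FO values were 5.36 and 3.44 in homozygous, 3.74 on both heterozygous and 4.60 and 2.41 in wild-type arrays, so no FO array reached the lowest MZ array. Ppif passed at -0.42 (limma adjusted p = 0.00174), but 4 MZ arrays share the single value 7.44 and 3 FO arrays the value 7.87, which can occur where probes lie at background. Such repeated values, on 3 or more arrays of a cell type, occurred in 519 of the 4137 genes called here. They occurred in 0 of the 4 called members, each read from its highest-mean probe set.

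Of 23 regulators of family transcription and stability, 2 passed as higher and 7 as lower (16.2% and 28.2% of all genes), with a median of -0.39. The forkhead factor Foxo4 fell by 1.87 ± 0.12 in MZ cells (limma adjusted p = 5.73e-06) and Rela, an NF-κB subunit, by 0.87 ± 0.15 (limma adjusted p = 0.00169). Ets1, a transcription factor abundant in resting lymphocytes, fell by 0.69 ± 0.13 (limma adjusted p = 0.00323). E2f1, a cell cycle factor, was higher by 2.07 (limma adjusted p = 2.14e-07), with 5 FO arrays at the single value 3.53. Of 9 death receptor genes, 2 passed as higher and 3 as lower (16.2% and 28.2% of all genes), with a median of 0.085. Fas was higher by 1.15 ± 0.16 (limma adjusted p = 5.46e-04), although its protein, CD95, was among the targets of the depletion antibodies, and Faim fell by 0.50 ± 0.076 (limma adjusted p = 9.13e-04). No gene of the 4 lists passed in any comparison between genotypes.

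**Figure D5:**
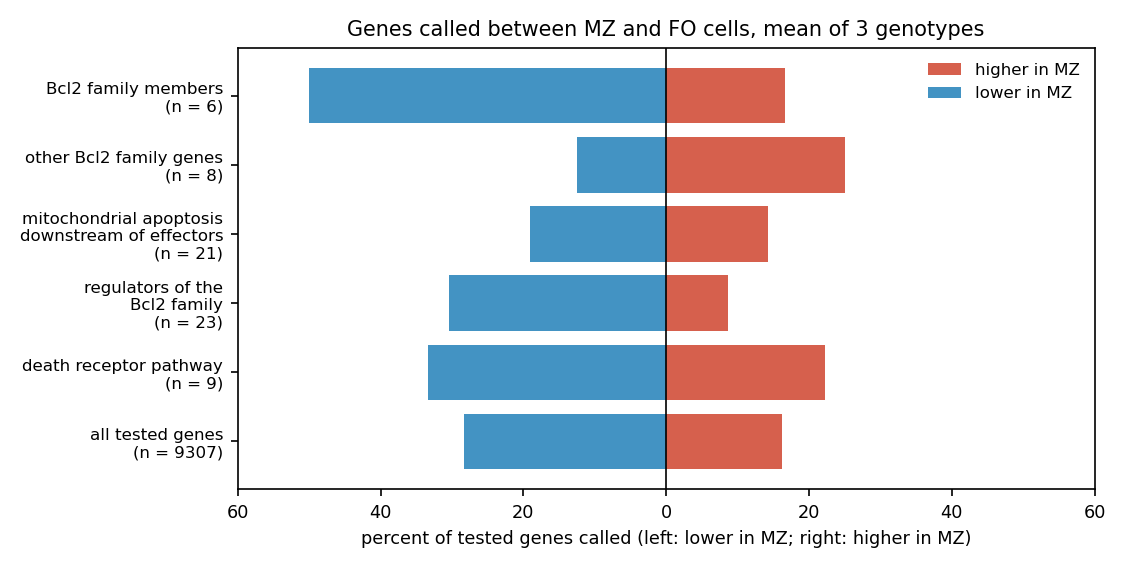
Percent of tested genes called higher (right) or lower (left) in MZ than in FO cells (mean of 3 genotypes, limma adjusted p under 0.05) in the family, in 4 pathway lists and among all tested genes. In the family 1 gene was higher and 3 were lower, and each list held calls in both directions.

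The genes whose pattern over the 12 arrays was most like that of a member are a description only. Over 12 arrays, Bid was closest to Thnsl1, Pctp and Pglyrp2 (Pearson r = 0.98, 0.97 and 0.97). Bmf was closest to Retreg1, Mbd2 and Ank (r = 0.98 each). Bcl2 was closest to Abraxas2, Dnajb11 and Bend5 (r = 0.97, 0.96 and 0.96). The 12 arrays fall into MZ and FO cells, which Bid and Bmf separate.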

How the data were processed

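In total, 12 arrays of total RNA were grouped by cell type and Bcl6 genotype into 6 groups of 2. The authors deposited log2 levels, 1 per probe set; GCRMA is the tool listed per the submitters' processing notes (version not given in the sources used here). This method subtracts a sequence-dependent background, applies quantile normalization and then summarises probes, so dim probe sets pile up near a minimum. Of 45101 probe sets, 34958 had 1 gene symbol in the platform annotation; the one with the highest mean stood for its gene. Genes that reached 4 (log2) on 2 arrays or more, 9307 in all, entered 1 linear model of the 6 group means with limma 3.58.1 (lmFit, eBayes) in R 4.3.3, with 6 residual degrees of freedom. P-values are two-sided and adjusted by Benjamini-Hochberg over all tested genes, with a threshold of 0.05. The number of arrays limits the precision. The fit was tested on simulated data with independent noise on each array, so that test does not cover the structure shared between groups of arrays.

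All members were eligible for naming; of each other list, up to 4 genes past the threshold with the smallest p, and the 3 most alike genes of the 3 members with the widest group means. Members and lists were chosen with earlier results of these data known. Alternatives covered the filter, probe sets, variance moderation, weights, scaling, which arrays were fitted, a replicate block and leaving out each array.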

Additional observations from a re-analysis of the deposited data

How the results depend on the processing

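Calls of Bmf and Bid between MZ and FO cells in wild-type cells and in the mean of the genotypes were kept in each of the 12 fits that left out 1 array, and no call changed sign. In the mean of 3 genotypes, 2 members passed with array medians set equal and 2 with quantile normalization, against 4 as reported, with 2 to 4 when 1 array was left out. In homozygous cells 3 passed with no filter (Bcl2l1, Mcl1 and Bmf, of 9 tested), against Bmf alone as reported. Bcl2l1 lay below 4 on every array, with 4 MZ arrays at the single value 2.61, so its call rests on values below the filter. The share of all genes that passed without the filter is not given here. With the mean of all probe sets 0 passed. With array weights, equal medians, quantile normalization and the replicate block 2 passed each, and Bid was gained in these 4. In heterozygous cells 1 passed with the mean of all probe sets and 1 with only the arrays compared, and 3, Bcl2 included, with no filter, with an intensity trend, with array weights and with the replicate block, against 2 as reported, with 1 to 2 when 1 array was left out. In wild-type cells 1 passed with the mean of all probe sets and 0 with only the arrays compared. For homozygous against wild-type cells in the mean of both cell types, 0 to 1 passed when 1 array was left out. The cause of these shifts was not tested. Replicate numbers were not treated as pairs, since correlations of deviations ran from -0.26 to 0.77 over 15 pairs of groups and 8 exceeded 0.1. Structure was nevertheless shared: FO heterozygous, FO homozygous, MZ wild-type and MZ homozygous, whose replicate 1 arrays had high S100a8, correlated with each other at 0.45 to 0.77, and MZ heterozygous with FO wild-type at 0.58. The number of arrays, 2 a group, limits the precision of each difference.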

Other observations

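Pmaip1, which encodes the BH3-only protein NOXA, was singled out after its values were seen. It ranged from 8.64 to 12.20 over the 12 arrays and did not pass between cell types or genotypes. It stood at 11.56 and 9.50 in MZ homozygous, 8.64 and 9.79 in MZ heterozygous and 12.20 and 9.93 in MZ wild-type arrays, and at 11.58 and 9.90 in FO homozygous, 11.61 and 10.53 in FO heterozygous and 9.39 and 11.51 in FO wild-type arrays. Arrays of 1 group were up to 2.27 apart. Its level followed the mean of immediate early genes on the same arrays (Pearson r = 0.91, Spearman rho = 0.86, n = 12). Without the 2 arrays farthest from the median, r was 0.89. This is a description only, and the labels do not say which arrays were handled together. For the 6 tested members the same r lay between -0.17 and 0.46, and between -0.59 (Bid) and 0.51 (Bak1) without those 2 arrays. Mcl1 was higher on the array labelled replicate 2 in 6 of 6 groups, Bcl2 and Bid in 5 of 6, Bmf and Bak1 in 2 of 6 and Bcl2l11 in 1 of 6. The share of all tested genes with such counts was not taken, so they are not read as a trait of the members.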
